A study of Chenopodium quinoa with 24 samples.

Results

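The comparison described here is that of quinoa plants heated at both root and shoot with unheated plants after 11 days. Plants of the quinoa (Chenopodium quinoa) line QQ74 were grown in soil at 22°C and treated from the first open flower onwards. In the HRS treatment, for heated roots and shoots, the roots were at 30°C and the shoots at 35°C, while the control was at 22°C throughout. Leaf RNA was sequenced from 3 plants of each group on day 11, and each plant was a biological replicate. All transcripts with a value in this comparison were taken, which were 30322 of the 44776 in the deposited table. The remaining 14454 were not tested there. The deposited table holds 1 fit of 6 plants for each of 6 comparisons, and 0 columns with values of single plants. Group levels are therefore given below as geometric means of 3 plants, in normalised estimated counts, and the overlap of single plants cannot be shown. Differences are given as b, the mean natural log level in HRS minus that in control, with its standard error. A b of 0.69 corresponds to a doubling of the level. HRS plants stood in another growth chamber than control plants, in a wooden box used for that treatment alone, so chamber and box cannot be told apart from the heating. Quinoa is tetraploid, and many transcripts below are copies with the same Arabidopsis match, among which the sharing of reads is not known. Gene names are those of the best Arabidopsis match.

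Plants meet the first hours of heat with chaperones, which bind unfolded proteins, and with the transcription factors that switch them on. Over days, leaves adjust protein synthesis, membrane lipids, water transport and carbohydrate turnover, and hormones such as abscisic acid set growth and stomatal opening. Ribosomal proteins are the protein part of the ribosome, and in plants the cytosolic, plastid and mitochondrial ribosomes have separate sets of them.

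After 11 days, a Wald z test with Benjamini-Hochberg adjustment called 1844 transcripts higher in HRS, 6.08% of those tested, and 1879 lower, 6.20%. Because 3 plants a group leave only 4 residual degrees of freedom, the effects were tested a second time with limma, which does not take the spread as known. It called 844 transcripts higher, 2.78%, and 839 lower, 2.77%. The counts in gene lists below are to be read against these shares over all transcripts. Both tests called 1681 transcripts, and only these are described below as higher or lower in HRS. Their median change was 2.47-fold. Of these transcripts 97 were at least 4-fold higher and 315 at least 4-fold lower. The median standard error of b was 0.23 over all transcripts, 0.59 below the lower quartile of abundance and 0.14 above the upper one. As a check of the tissue, transcripts of light-harvesting proteins held 7.03% of the summed level in control and 4.93% in HRS, and 6 of the 20 transcripts with the highest estimated counts in control belonged to them.

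**Figure D1:**
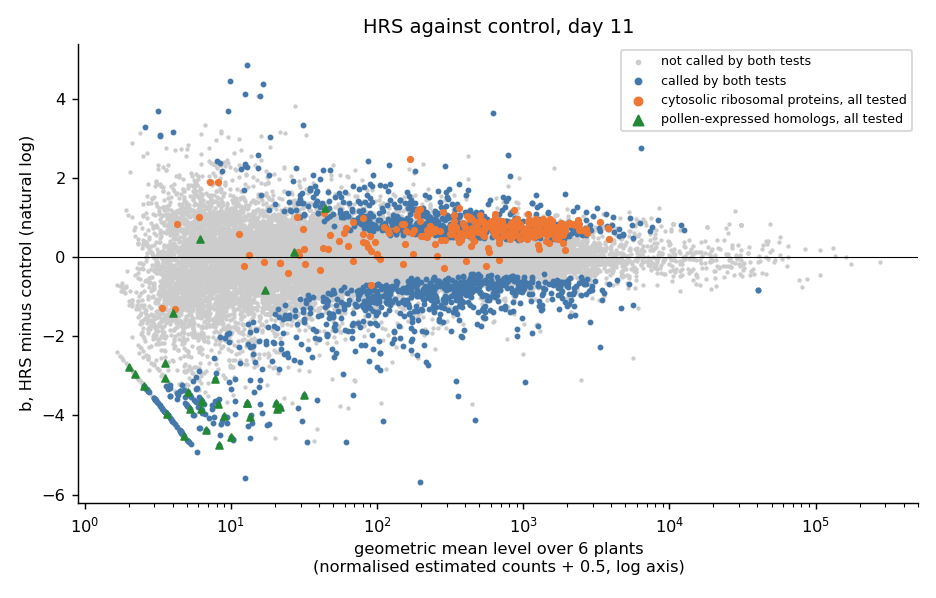
Difference between HRS and control on day 11 (vertical axis, b on the natural log scale) against the geometric mean level over 6 plants (horizontal log axis, normalised estimated counts plus 0.5). Each point is a transcript; the 1681 called by both tests are blue, the 286 cytosolic ribosomal proteins orange and the 29 pollen-expressed homologs green triangles. The orange points form a band above 0, and most green points lie at the lower left, where the level in HRS approaches 0.

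The most widespread difference was in the cytosolic ribosome. Of 286 transcripts of cytosolic ribosomal proteins tested, 211 (73.8%) were called higher by the Wald test, against 6.08% of all transcripts, and 0 were called lower. Limma called 165 of them higher and 0 lower. The median b was 0.69, a 1.99-fold difference, and the lower and upper quartiles were 0.55 and 0.82. In all, b was above 0 for 269 transcripts and below 0 for 17, of which none was called by either test. For the 60S subunit 134 of 172 transcripts were called higher (median b = 0.70), and for the 40S subunit 77 of 114 (median b = 0.66). These transcripts made up 11.4% of all those called higher by the Wald test. The summed level of the list went from 162600 in control to 326400 in HRS.

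The ribosomal proteins with the smallest limma p show a narrow spread of effects. RPL37B (AUR62025327-RA), a protein of the large subunit, was at 371 in control and 1090 in HRS, with b = 1.08 ± 0.13 (SE, 3 plants a group; limma adjusted p = 0.0129). RPL38A (AUR62000282-RA), also of the large subunit, had 260 and 715, and b was 1.01 ± 0.13. RPS2B (AUR62026025-RA) of the small subunit had 1480 and 3750, and b was 0.93 ± 0.13. For RPL32A (AUR62028358-RA) the levels were 456 and 1120, with b = 0.90 ± 0.13. Among the 165 called by both tests, b ran from 0.46 to 1.24, so that no single one of them reached 4-fold.

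Some transcripts of other parts of the translation machinery were also higher. Aminoacyl-tRNA synthetases, which load amino acids onto their tRNAs, had 33 of 106 transcripts called higher by the Wald test (31.1%, against 6.08% of all). Wald calls in the lower direction were 0, and limma called 15 of the 33. Of the latter, the tyrosine enzyme EMB2768 (AUR62033498-RA), annotated as chloroplastic and mitochondrial, went from 261 to 568 (b = 0.78 ± 0.13). The threonine enzyme THRRS (AUR62032963-RA), annotated as mitochondrial, went from 496 to 917 (b = 0.62 ± 0.13). Among eukaryotic translation initiation factors, 24 of 79 transcripts were called higher (30.4%) and 1 lower, 8 and 0 by limma. TIF3E1 (AUR62024517-RA), a subunit of the factor eIF3 that brings the mRNA to the ribosome, went from 322 to 648 (b = 0.70 ± 0.13). Elongation factors had 11 of 40 called higher (27.5%) and 2 lower, 5 and 1 by limma. Elongation factor 2, LOS1, which moves the ribosome along the mRNA, rose in 2 copies, from 3160 to 6440 (AUR62026903-RA, b = 0.71 ± 0.14) and from 2690 to 6110 (AUR62040890-RA, b = 0.82 ± 0.14). The transcript called lower by both tests was PSI2 (AUR62041901-RA, 822 to 414), which carries "Elongation factor G, putative" in its annotation and entered the list by that name. The lists of synthetases and initiation factors were written after the data had been seen.

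Organelle ribosomes have their own proteins. In the plastid list 14 of 78 transcripts were called higher by the Wald test (17.9%, against 6.08% of all), with 3 by limma. In this list 72 of 78 had a b above 0, and the median b was 0.45. PSRP6 (AUR62034964-RA), a plastid large-subunit protein, went from 488 to 1210 (b = 0.91 ± 0.23). For mitochondrial ribosomal proteins 2 of 17 were called higher (11.8%) and 1 by limma (median b = 0.19). Proteasome subunits, which degrade proteins, had a median b of -0.06, with 0 of 91 transcripts called higher and 1 lower. That one was RPT6A (AUR62011063-RA), at 1170 in control and 384 in HRS (b = -1.11 ± 0.23).

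**Figure D2:**
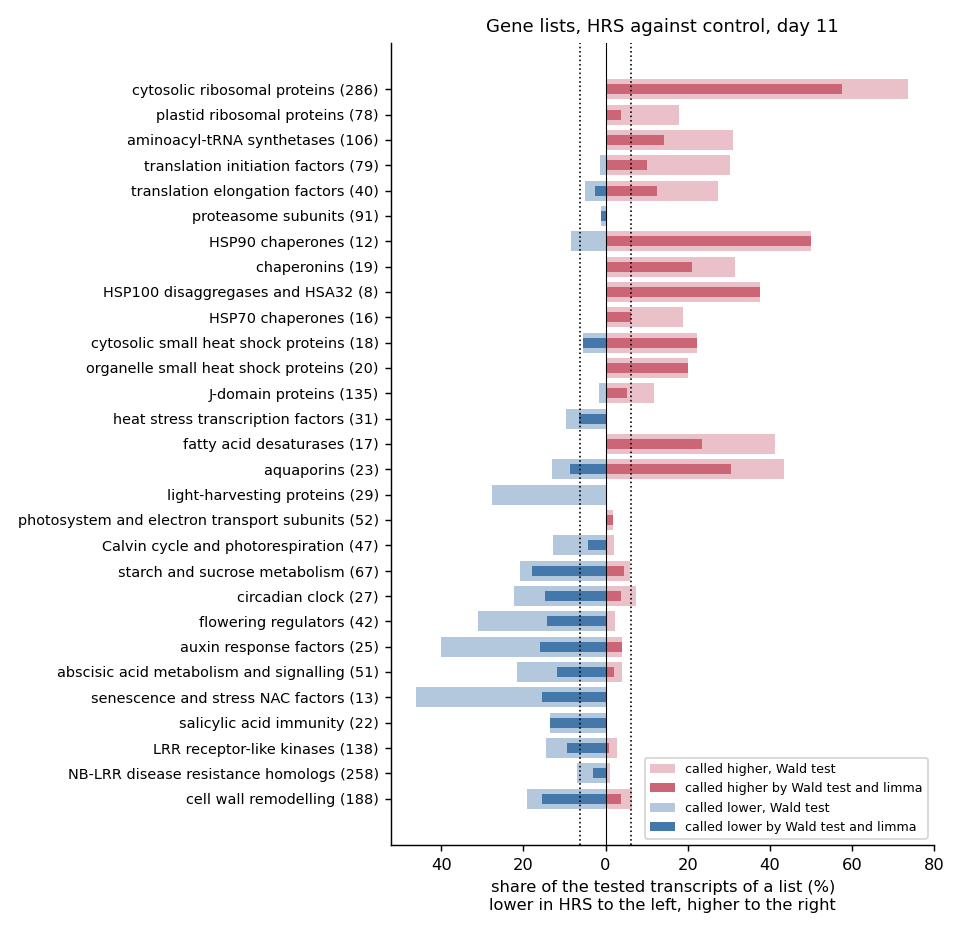
Share of the tested transcripts of 29 gene lists that were called higher (red, to the right) or lower (blue, to the left) in HRS on day 11, in percent, with the number tested in parentheses. Pale bars are calls by the Wald test, dark bars calls by both the Wald test and limma, and dotted lines the shares over all transcripts by the Wald test, 6.08% higher and 6.20% lower. The bar of the cytosolic ribosomal proteins reaches 73.8%. The pollen-expressed homologs, with 79.3% called lower, are not among the lists drawn.

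Part of the heat shock response was still present on day 11. HSP90 chaperones, which help signalling proteins to fold, had 6 of 12 transcripts higher by both tests, with a median b of 0.69. By the Wald test these were 50.0%, against 6.08% of all, and 1 (8.33%, against 6.20%) was called lower, which limma did not call. The cytosolic HSP90-1 (AUR62021118-RA) was at 571 in control and 2270 in HRS (b = 1.38 ± 0.13, limma adjusted p = 0.00825), and its other copy (AUR62031424-RA) at 113 and 595 (b = 1.66 ± 0.36). The plastid HSP90-5 rose in 2 copies, from 1800 to 5040 (AUR62007851-RA, b = 1.03 ± 0.20) and from 1240 to 4380 (AUR62003042-RA, b = 1.26 ± 0.31). Of the 8 transcripts of HSP100 disaggregases, which pull proteins out of aggregates, and HSA32, a protein of heat memory in Arabidopsis, 3 were higher by both tests. ClpB1 (AUR62021576-RA) went from 57.4 to 200 (b = 1.24 ± 0.22), and HSA32 (AUR62014623-RA) from 32.0 to 125 (b = 1.35 ± 0.22). Chaperonins, the barrel-shaped folding machines of plastids and mitochondria, had 6 of 19 called higher by the Wald test (31.6%, against 6.08% of all). Limma called 4, and 18 of 19 had a b above 0. CPN60B2 (AUR62020851-RA) of the plastid was at 1530 and 4740 (b = 1.13 ± 0.36), and the mitochondrial At3g13860 (AUR62009829-RA) at 61.0 and 194 (b = 1.15 ± 0.18).

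HSP70 chaperones and their helpers had some members called, most of them higher. Of 16 HSP70 transcripts, 3 (18.8%, against 6.08% of all) were called higher and 0 lower by the Wald test. Limma called 1, the plastid HSP70-7 (AUR62023527-RA, 75.2 to 265, b = 1.26 ± 0.20). Of 34 co-chaperones, which assist HSP90 and HSP70, 3 were higher by both tests, and the median b was 0.03. Their Wald share of 8.82% was near the 6.08% of all transcripts. Of the 3, 2 were BAG6, at 1080 and 2220 (AUR62022637-RA, b = 0.72 ± 0.13) and at 21.2 and 76.5 (AUR62004430-RA, b = 1.26 ± 0.28). J-domain proteins, the partners that start the HSP70 cycle, had 16 of 135 called higher (11.9%) and 2 lower, 7 and 0 by limma. Their median b was 0.06. At3g14200 (AUR62009931-RA) went from 187 to 627 (limma adjusted p = 0.0129), and the plastid DJA6 (AUR62031070-RA) from 1090 to 2100 (b = 0.66 ± 0.13). In the folding machinery of the endoplasmic reticulum 3 of 36 were called higher (8.33%) and 2 lower (5.56%), near the 6.08% and 6.20% of all transcripts. By limma 1 was higher, the HSP90 member SHD (AUR62041482-RA, 734 to 1390, b = 0.64 ± 0.17). Thylakoid proteases and early light-induced proteins had 4 of 17 called higher by the Wald test and 0 by limma.

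Small heat shock proteins, which hold unfolding proteins in solution, were divided. The mitochondrial HSP23.6 was at 25.4 in control and 293 in HRS (AUR62039962-RA, b = 2.43 ± 0.37), and a further copy went from 33.1 to 265 (AUR62007509-RA, b = 2.07 ± 0.21). The peroxisomal HSP15.7 (AUR62018223-RA) was at 37.4 and 389 (b = 2.33 ± 0.49), and another copy at 0.203 and 14.5 (AUR62037791-RA, b = 3.06 ± 0.91). In all, 4 of 20 transcripts in the list of organelles were higher by both tests and 0 lower. The median b of the organelle list was 0.105, and 11 of the 20 had a b above 0. In the cytosol, 4 of 18 transcripts (22.2%) were higher by both tests and 1 (5.56%) was lower, and the median b was 0.06. HSP17.6C (AUR62022806-RA) went from 88.0 to 303 (b = 1.23 ± 0.21), and HSP17.8 (AUR62021644-RA) from 239 to 728 (b = 1.11 ± 0.27). The class V protein HSP15.4 (AUR62012683-RA) was at 12.5 and 101 (b = 2.06 ± 0.55). The lower one was HSP18.1 (AUR62022816-RA), at 537 and 266 (b = -0.70), which was chosen after its values had been seen.

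No heat stress transcription factor, the kind that switches on the chaperone genes, was called higher. Of 31 transcripts, 0 were called higher (against 6.08% of all) and 3 lower by the Wald test (9.68%, against 6.20%), 2 of them by limma. HSFA2 (AUR62039129-RA), which in Arabidopsis prolongs the heat response, was at 379 in control and 116 in HRS (b = -1.18 ± 0.28, limma adjusted p = 0.0294). HSFB2A (AUR62021216-RA), a member of the class that lacks the activation domain, was at 40.5 and 9.19 (b = -1.44 ± 0.40). MBF1C (AUR62011023-RA), a coactivator in the heat response, had 8.33 and 37.3, and its b of 1.46 ± 0.61 was not called by either test. Antioxidant enzymes had 5 of 43 transcripts called higher (11.6%) and 0 lower. Of these the plastid iron superoxide dismutase FSD2 was higher by both tests in 2 copies, from 2480 to 6730 (AUR62010480-RA, b = 1.00 ± 0.13) and from 1140 to 2640 (AUR62030413-RA, b = 0.84 ± 0.19).

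The effect of HRS on day 11 was then compared with that of HRS on day 1, which has its own 3 heated and 3 control plants. On day 1 the Wald test called 14.1% of transcripts higher and 12.5% lower. By a z test of the difference with Benjamini-Hochberg adjustment, b was higher on day 11 than on day 1 in 638 of 29291 transcripts, 2.18%, and lower in 1360, 4.64%. With both days scaled to equal summed levels, these counts became 1174 and 940, so that the prevailing direction depends on the scaling. The ribosomal proteins followed one direction under either scaling: in 144 of 284 transcripts b was higher on day 11 and in 0 lower, and after scaling in 187 and 0. Their median b on day 1 was 0.07. Cytosolic small heat shock proteins followed the other direction, with b lower on day 11 in 14 of 18 transcripts (12 after scaling) and higher in 1 (2 after scaling), and their median b was 3.80 on day 1 and 0.06 on day 11. All 8 transcripts of HSP100 and HSA32 had a lower b on day 11 under both scalings. Of the 827 transcripts higher by both tests on day 11 and tested on day 1, 401 had also been called higher on day 1 and 12 lower. Of the 762 lower ones, 406 had been called lower and 34 higher.

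**Figure D3:**
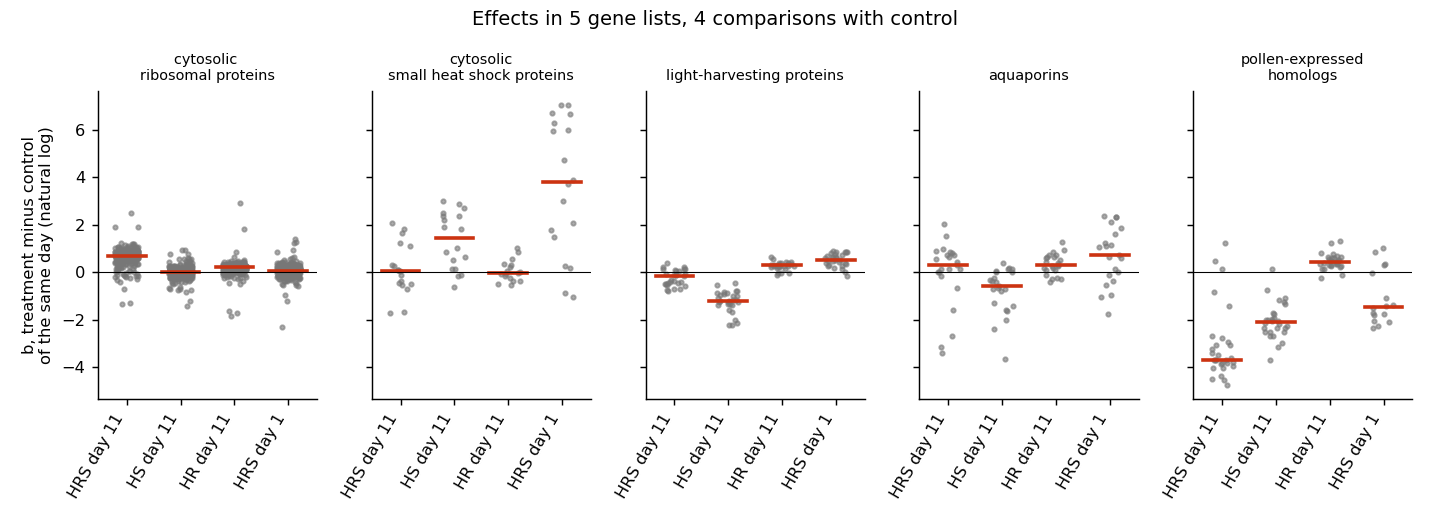
Effect b (natural log, treatment minus control of the same day) of each tested transcript in 5 gene lists for HRS on day 11, HS on day 11, HR on day 11 and HRS on day 1. Grey points are transcripts, with sideways scatter for visibility, and red lines are medians. The median of the cytosolic ribosomal proteins is 0.69 in HRS on day 11 and between -0.01 and 0.20 in the other comparisons, and that of the pollen-expressed homologs is -3.68 in HRS and -2.10 in HS on day 11. The b are not scaled to equal summed levels.

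On day 11, plants with only the shoots heated to 35°C (HS) and plants with only the roots heated to 30°C (HR) were compared with the same 3 control plants, and their values are given side by side. The ribosomal proteins had a median b of -0.01 in HS and 0.20 in HR, with 5 transcripts called higher and 3 lower in HS and 0 in HR. In HS the Wald test called 6.09% of all transcripts higher and 7.49% lower. Light-harvesting proteins, which bind the chlorophyll that collects light, had a median b of -0.14 in HRS, -1.23 in HS and 0.29 in HR. Aquaporins had medians of 0.32, -0.59 and 0.30. The summed level of all transcripts differed from control by 0.012 in HRS and by -0.242 in HS (natural log), and these medians are not scaled for it. In a direct z test of HRS against HS, with the largest standard error that the fits allow, 854 of 29947 transcripts were higher in HRS, 2.85%, and 305 lower, 1.02%. Scaled to equal summed levels, 249 were higher and 1485 lower, so the direction over all transcripts is not settled. Of the ribosomal proteins, 132 of 284 were higher in HRS than in HS and 0 lower, but after scaling 25 and 3. For the Rubisco small subunit and its activase, 9 of 11 were higher in HRS than in HS, and 8 after scaling. Light-harvesting proteins were higher in HRS than in HS in 15 of 29 transcripts, and in 6 after scaling, with 0 lower. Of the aquaporins, only 1 of 23 was higher in HRS than in HS and 0 lower, with the same counts after scaling. Heat stress transcription factors were lower in HRS in 5 of 30 transcripts, and in 7 after scaling.

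Few photosynthesis genes were called by both tests. Of the 29 light-harvesting transcripts, 8 were called lower by the Wald test (27.6%, against 6.20% of all) and 0 by limma. Among them LHCB3 (AUR62015598-RA) had levels of 29100 and 12900 (b = -0.81 ± 0.23, limma adjusted p = 0.065). Subunits of the photosystems and of electron transport had 1 of 52 transcripts called, which was plastocyanin DRT112 (AUR62036731-RA), the copper protein that carries electrons to photosystem I, at 5200 in control and 11100 in HRS (b = 0.76 ± 0.19). Copies of the Rubisco small subunit RBCS-1A did not go one way. One fell from 8890 to 2460 (AUR62023308-RA, b = -1.29 ± 0.30), while another had 17000 and 35300 (AUR62008994-RA, b = 0.73 ± 0.24, limma adjusted p = 0.0994). In the Calvin cycle and photorespiration list, 1 of 47 was called higher and 6 lower by the Wald test, with 0 and 2 by limma. Those 2 were copies of the aldolase FBA3, which fell from 235 to 54.6 (AUR62000564-RA, b = -1.45 ± 0.18) and from 127 to 38.1 (AUR62006918-RA, b = -1.20 ± 0.22).

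Chlorophyll enzymes were called in both directions. The shares over all transcripts were 6.08% higher and 6.20% lower by the Wald test. In chlorophyll synthesis, 4 of 25 were called higher and 1 lower by the Wald test and 0 by limma. HEMA1, the glutamyl-tRNA reductase that starts the pathway, had levels of 2610 and 6080 (AUR62035407-RA, b = 0.85 ± 0.26, limma adjusted p = 0.0528). In chlorophyll breakdown, 2 of 22 were called higher and 4 lower, 2 and 1 by limma. Red chlorophyll catabolite reductase RCCR was higher in 2 copies, from 194 to 386 (AUR62003879-RA, b = 0.68 ± 0.14) and from 99.9 to 181 (AUR62001931-RA, b = 0.59 ± 0.17), while pheophorbide a oxygenase PAO (AUR62029149-RA), the enzyme one step before it, fell from 1410 to 752 (b = -0.63 ± 0.16). SGR1 (AUR62017319-RA), which removes magnesium from chlorophyll, had 177 and 51.7 (b = -1.22 ± 0.38, limma adjusted p = 0.0535).

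Several transcripts of starch and sucrose metabolism were lower. By the Wald test 14 of 67 transcripts were called lower (20.9%, against 6.20% of all) and 4 higher, and limma called 12 and 3. APL3 (AUR62016760-RA), a large subunit of the enzyme that makes ADP-glucose for starch, went from 10300 to 3050 (b = -1.22 ± 0.14, limma adjusted p = 0.0129). The debranching enzyme ISA3, which takes part in starch breakdown, fell in both copies, from 639 to 124 (AUR62027816-RA, b = -1.63 ± 0.16) and from 267 to 89.4 (AUR62018975-RA, b = -1.09 ± 0.16). A copy of the beta-amylase BAM1 (AUR62035895-RA) was at 202 in control and near 0 in HRS, at 0.266 (b = -5.58 ± 0.65). Its b was -2.52 ± 0.76 in HS and 0.34 ± 0.72 in HR on day 11, and -1.45 ± 0.64 in HRS on day 1. From which cells the RNA of this copy came was not tested. In contrast, 2 other copies of BAM1 were higher by both tests, with levels of 1820 and 3790 (AUR62019329-RA) and of 1040 and 2310 (AUR62000148-RA). The latter pair was chosen after the values had been seen.

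Some water channels and membrane lipid enzymes were higher. Of 23 aquaporin transcripts, 10 (43.5%) were called higher and 3 (13.0%) lower by the Wald test, against 6.08% and 6.20% of all. Limma called 7 higher and 2 lower. The tonoplast channel TIP2-1 (AUR62022163-RA) went from 291 to 2250 (b = 2.04 ± 0.51) and TIP1-3 (AUR62041570-RA) from 4060 to 9620 (b = 0.86 ± 0.14). The plasma membrane channel PIP2-1 (AUR62039641-RA) had 570 and 1180 (b = 0.73 ± 0.13), whereas a copy of PIP1.4 (AUR62010692-RA) fell from 43.2 to 2.53 (b = -2.67 ± 0.60). Fatty acid desaturases, which put double bonds into membrane lipids, had 7 of 17 called higher (41.2%) and 0 lower, 4 and 0 by limma. The plastid desaturase FAD6 rose in both copies, from 2410 to 4680 (AUR62020911-RA, b = 0.67 ± 0.13) and from 3640 to 6450 (AUR62018508-RA, b = 0.57 ± 0.14). ADS3 (AUR62016340-RA), which acts on plastid galactolipids, was at 398 and 1170 (b = 1.08 ± 0.34).

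Nitrogen, sulphur and respiratory genes were called in small numbers. Over all transcripts the Wald test called 6.08% higher and 6.20% lower, and limma 2.78% and 2.77%. In sulfate assimilation and transport, 3 of 30 were called higher and 1 lower, 2 and 1 by limma. The transporter SULTR3-5 (AUR62011012-RA) went from 1270 to 2890 (b = 0.82 ± 0.13), and the cysteine synthase OASA1 (AUR62004999-RA) from 3490 to 1370 (b = -0.94 ± 0.23). In nitrate reduction and ammonium assimilation, 2 of 28 were called higher and 3 lower, 1 and 2 by limma. The nitrate transporter NPF6.3 (AUR62007491-RA) fell from 574 to 227 (b = -0.93 ± 0.26) and the cytosolic glutamine synthetase GLN1-3 (AUR62017693-RA) from 973 to 502 (b = -0.66 ± 0.13), whereas asparagine synthetase ASN3 (AUR62002010-RA) rose from 540 to 936 (b = 0.55 ± 0.13). Among 19 transcripts of alternative respiration, limma called 1 higher and 1 lower, and the Wald test 1 and 2. The alternative oxidase AOX1A (AUR62038652-RA) went from 25.0 to 87.1 (b = 1.23 ± 0.26) and the uncoupling protein PUMP1 (AUR62041355-RA) from 222 to 129 (b = -0.54 ± 0.16). Phenylpropanoid and flavonoid enzymes had 1 of 63 called higher and 3 lower, 1 and 1 by limma. SR and glycine-rich RNA-binding proteins had 3 of 52 called higher and 0 lower, 1 and 0 by limma. Of 18 transcripts of galactinol and raffinose synthesis, the enzymes of sugars that protect cells in stress, 0 were called by either test, and guard cell markers had 1 of 15 called higher by the Wald test and 0 by limma.

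Of 188 cell wall transcripts, 36 (19.1%) were called lower by the Wald test, against 6.20% of all, and 29 by both tests. Another 12 were called higher, and their 6.38% was near the 6.08% of all transcripts, with 7 by both tests. Expansins loosen walls in growing cells, and EXPA8 (AUR62030623-RA) had the highest b of the transcripts called by both tests that had a mean level of at least 20 and an Arabidopsis match, with 101 in control and 3830 in HRS (b = 3.63 ± 0.32, limma adjusted p = 0.00301). Its copy AUR62024921-RA went from 214 to 2830 (b = 2.58 ± 0.42). In HS on day 11 the b of these copies was 0.06 and 0.65, in HR 1.54 and 1.53, and in HRS on day 1 -0.72 and 0.14. Of the 36 lower ones, 27 had a level under 3 in HRS, and 14 were homologs of pectin enzymes known from Arabidopsis pollen.

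Most transcripts in a list of pollen-expressed homologs, written after the data had been seen, were lower. Because the list was written then, its counts are not independent evidence. Of its 29 tested transcripts, 23 were called lower by the Wald test (79.3%, against 6.20% of all) and 0 higher. Both tests called 19 of them lower, where limma called 2.77% of all transcripts lower. The summed level of the list was 1611 in control, 0.0101% of the total, and 152.8 in HRS. PPME1 (AUR62035938-RA), a pectin methylesterase of pollen tubes, was at 88.5 in control and 0.266 in HRS, with b = -4.75 ± 0.64. A copy of the exopolygalacturonase PGA3 (AUR62008700-RA) had 45.1 in control and was at 0 in all 3 HRS plants, as was the pollen receptor kinase PRK3 (AUR62009918-RA) with 25.9 in control. Altogether 5 of the 29 were at 0 in every HRS plant. Not all went down, since 3 transcripts had a b above 0, the highest a copy of At3g14040 (AUR62027808-RA), with 23.1 and 81.5 (b = 1.25 ± 0.64, called by neither test). The median b of the list was -2.10 in HS and 0.45 in HR. In RNA of whole leaves, fewer cells of a type and less RNA per cell cannot be told apart. Whether this RNA came from leaf cells or from pollen on the leaves was not tested, nor was its part in the cell wall result. Without this list, 22 of 174 cell wall transcripts were called lower by the Wald test, 14 of them with a level under 3 in HRS, and 12 higher. Over all transcripts the Wald test called 6.20% lower and 6.08% higher.

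Some flowering regulators were lower. By the Wald test 13 of 42 flowering regulators (31.0%, against 6.20% of all) were called lower and 1 higher, and limma called 6 and 0. Of these 6, most were copies of AGL8, also known as FRUITFULL, a MADS box factor that acts in flowering and fruit growth in Arabidopsis. The copy AUR62039674-RA was at 3000 in control and 525 in HRS (b = -1.74 ± 0.28, limma adjusted p = 0.0142). Other copies went from 561 to 83.3 (AUR62039675-RA, b = -1.90 ± 0.33), from 1100 to 275 (AUR62032129-RA, b = -1.39 ± 0.33) and from 234 to 106 (AUR62009484-RA, b = -0.79 ± 0.16). All 8 transcripts of floral organ markers had a b below 0, with a median of -1.11, but SEP1 (AUR62007888-RA, 79.4 to 32.0, b = -0.90 ± 0.25) was the single one called by either test. Their summed level was 1603 in control and 1233 in HRS, and the part of floral RNA in the flowering result was not tested.

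Several genes of the clock and of light signalling were lower. All leaves were taken at the same time after lights on. Of 27 clock transcripts, 2 (7.41%) were called higher and 6 (22.2%) lower by the Wald test, against 6.08% and 6.20% of all. Limma called 1 higher and 4 lower. The pseudo-response regulators of the clock APRR9 (AUR62022677-RA, 3410 to 1340, b = -0.93 ± 0.13) and APRR5 (AUR62004561-RA, 3290 to 1580, b = -0.73 ± 0.13) were lower, as were LNK2 (AUR62037207-RA, 3780 to 1890, b = -0.69 ± 0.13) and LNK1 (AUR62010118-RA, 3630 to 2080, b = -0.56 ± 0.13). Of 31 transcripts of photoreceptors, PIFs and HY5, 3 (9.68%) were called higher and 5 (16.1%) lower by the Wald test. Limma called 0 and 4, and 18 of the 31 had a b above 0, with a median of 0.06. The ubiquitin ligase COP1, which removes light-signalling factors in the dark, fell in 2 copies, from 809 to 164 (AUR62012768-RA, b = -1.60 ± 0.18) and from 738 to 236 (AUR62021890-RA, b = -1.14 ± 0.32). The blue light receptor CRY2 (AUR62015577-RA) went from 848 to 431 (b = -0.68 ± 0.14).

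Hormone genes showed lower levels of several repressors. SMXL proteins repress the strigolactone response until they are degraded. The SMXL8 copy AUR62012257-RA had the smallest limma p of any transcript named here. SMXL8 fell from 1010 to 139 (AUR62012257-RA, b = -1.98 ± 0.14, limma adjusted p = 0.00205) and from 512 to 79.4 (AUR62022889-RA, b = -1.86 ± 0.17), and SMXL6 (AUR62020145-RA) from 3660 to 1070 (b = -1.23 ± 0.13). The other 12 transcripts of this pathway, including the receptors D14 and KAI2 and the F-box protein MAX2, had a b between -0.88 and 0.53 and were not called by limma. That list was written after the data had been seen. For abscisic acid, 11 of 51 transcripts were called lower (21.6%, against 6.20% of all) and 2 higher by the Wald test, 6 and 1 by limma. The protein phosphatases that hold back the abscisic acid signal were among them, with ABI1 at 654 and 214 (AUR62010911-RA, b = -1.12 ± 0.15) and at 698 and 306 (AUR62021414-RA, b = -0.82 ± 0.20), and PP2CA (AUR62012136-RA) at 2130 and 868 (b = -0.90 ± 0.18). LTI65 (AUR62021191-RA), which abscisic acid induces in Arabidopsis, had 17.9 in control and was at 0 in all HRS plants, and the drought-induced RD22 (AUR62023031-RA), named for its low b and in no list, went from 236 to 5.87 (b = -3.61 ± 0.38, limma adjusted p = 0.00301). Zeaxanthin epoxidase ZEP (AUR62001926-RA), an enzyme on the way to abscisic acid and of the xanthophyll cycle, was at 7360 and 3740 (b = -0.68 ± 0.14). Of 25 auxin response factors, 10 were called lower by the Wald test and 1 higher, 4 and 1 by limma. ARF3 (AUR62031093-RA, 793 to 323, b = -0.90 ± 0.22) was lower and ARF5 (AUR62035439-RA, 55.9 to 157, b = 1.03 ± 0.27) higher.

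Among immune receptors and genes of leaf ageing, most of those called were lower. LRR receptor-like kinases, which sense signals at the cell surface, had 4 of 138 transcripts called higher and 20 lower (14.5%), 1 and 13 by limma. The highest of them was a homolog of the flagellin receptor FLS2 (AUR62027161-RA), at 5.40 in control and 166 in HRS (b = 3.34 ± 0.45). The kinase At1g53430 (AUR62039598-RA) fell from 1020 to 293 (b = -1.24 ± 0.15). NB-LRR resistance proteins, which act inside the cell, had 3 of 258 called higher and 18 lower (6.98%), a share near the 6.20% of all transcripts. In salicylic acid immunity, 3 of 22 were lower by both tests (13.6%, against 6.20% of all by the Wald test and 2.77% by limma) and 0 higher. They were SARD1, a factor that switches on salicylic acid synthesis, with 710 and 265 (AUR62033803-RA, b = -0.98 ± 0.21) and with 227 and 66.5 (AUR62029901-RA, b = -1.22 ± 0.33), and EDS1 (AUR62031060-RA) with 322 and 151 (b = -0.76 ± 0.19). Senescence and stress NAC factors and markers had 6 of 13 called lower by the Wald test and 2 by limma, with 0 higher. NAC055 (AUR62029344-RA), a factor induced by abscisic acid and jasmonate in Arabidopsis, went from 89.5 to 31.0 (b = -1.05 ± 0.24). SAG12 (AUR62043333-RA), a protease of ageing leaves, had 136 and 3.35 (b = -3.57 ± 1.18), which limma did not call (adjusted p = 0.0516).

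**Figure D4:**
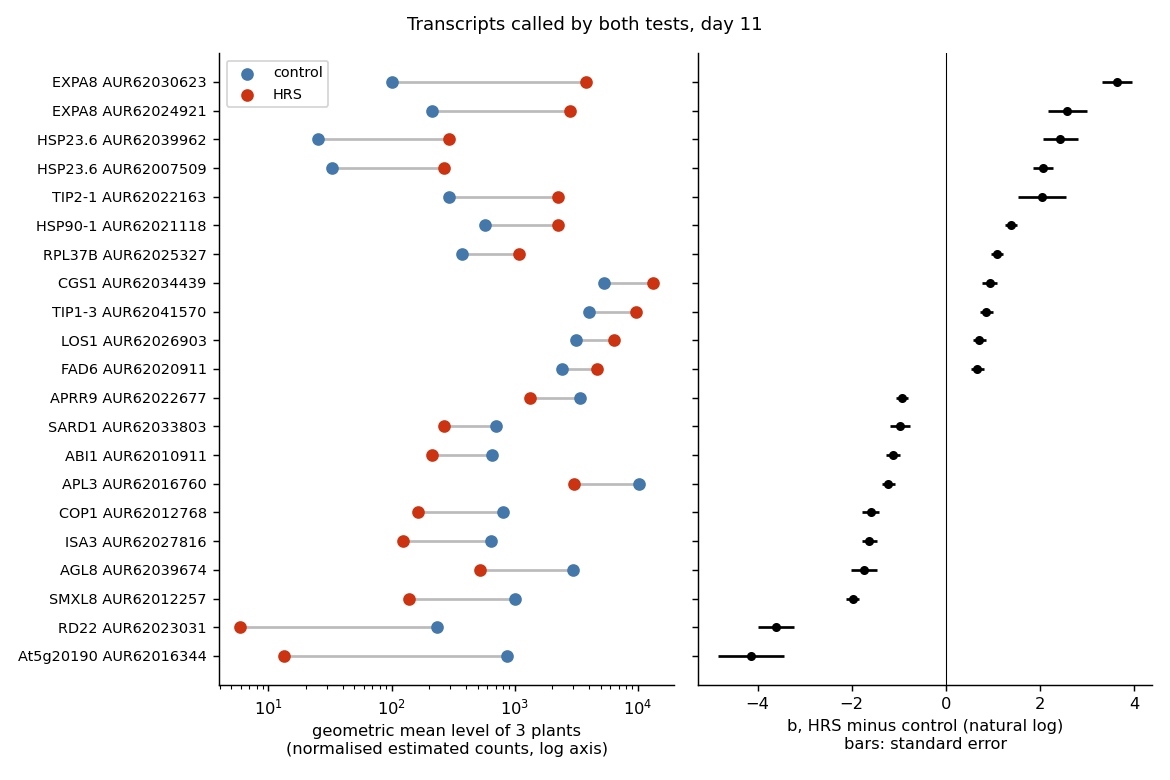
Left, geometric mean levels of 3 plants in control (blue) and HRS (red) on day 11, in normalised estimated counts on a log axis, for 21 transcripts that both tests called. Right, b on the natural log scale with its standard error. EXPA8 AUR62030623 shows the largest rise, from 101 to 3830, and At5g20190 AUR62016344 the largest fall shown, from 866 to 13.4.

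Some of the largest falls were in genes outside these lists. At1g07080 fell in 2 copies, from 3330 to 10.9 (AUR62001894-RA, b = -5.68 ± 1.25) and from 3620 to 59.2 (AUR62009691-RA, b = -4.11 ± 1.13). In HS the b of these copies was -3.16 ± 1.55 and -1.87 ± 0.90, and the Wald test called neither there. The tetratricopeptide repeat protein At5g20190 went from 636 to 5.49 (AUR62011526-RA, b = -4.67 ± 0.91) and from 866 to 13.4 (AUR62016344-RA, b = -4.13 ± 0.70), with a b of 0.22 and -0.04 in HS and -1.31 and -1.13 in HR. The endochitinase EP3 (AUR62023809-RA) was at 341 and 2.71 (b = -4.67 ± 1.21). Their standard errors are among the widest of the transcripts named. Large rises outside the lists included the major latex-like protein MLP15 (AUR62023003-RA, 92.1 to 921, limma adjusted p = 0.0358), EMB3004 (AUR62004846-RA, 13.7 to 129, b = 2.21 ± 0.28) of the shikimate pathway and the lipase At5g45670 (AUR62027633-RA, 61.2 to 538, b = 2.17 ± 0.53). The b of this lipase in HS was -2.10 ± 1.41, which the Wald test did not call, and its difference between HRS and HS was not called either.

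By estimated counts, which are not corrected for transcript length, the 5 highest transcripts called higher by both tests included cystathionine gamma-synthase CGS1 (AUR62034439-RA, 5290 to 13400, b = 0.93 ± 0.16), an enzyme of methionine synthesis, TIP1-3 (AUR62026942-RA, 5320 to 10200, b = 0.65 ± 0.14) and plastocyanin. The other 2 match the locus At1g07920, with 8810 and 17700 (AUR62020765-RA, b = 0.70 ± 0.14) and 8010 and 18000 (AUR62027947-RA, b = 0.81 ± 0.14). Among those called lower, the highest were 2 entries of the endochitinase At2g43610 (AUR62002997-RA and AUR62002998-RA) with identical values of 60800 and 26400 (b = -0.83 ± 0.16), and are not independent measurements. APL3, ZEP and the lower RBCS-1A copy followed. A transcript with no Arabidopsis match (AUR62010294-RA), which the rule for named genes leaves out and which was chosen after its value had been seen, was also called higher by both tests, with b = 2.75 ± 0.80.

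Annotated functions were ranked by the share of transcripts called. Of 230 GO-slim terms with at least 50 tested transcripts, the 5 with the highest share called higher by the Wald test were structural constituent of ribosome (181 of 353, 51.3%), ribosome (215 of 438, 49.1%), translation (94 of 236, 39.8%), aminoacyl-tRNA ligase activity (31 of 101, 30.7%) and tRNA aminoacylation for protein translation (29 of 102, 28.4%). The 5 with the highest share called lower were enzyme inhibitor activity (14 of 54, 25.9%), aspartic-type endopeptidase activity (17 of 66, 25.8%), developmental process (18 of 76, 23.7%), phagocytosis (15 of 73, 20.5%) and cell wall (43 of 218, 19.7%). These terms overlap with each other and with the lists above, and their shares were not tested.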

How the data were processed

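Leaf reads had been trimmed (trimmomatic) and pseudoaligned with kallisto to the quinoa transcriptome, and the authors fitted sleuth 0.30.0 to 6 plants per comparison. Per the deposited table, b, its standard error and the mean level are on the natural log scale of normalised estimated counts plus 0.5, and the variance of the levels is given beside them. The table's p-value and q-value columns and its variance components hold the authors' own tests and were not used. The table gives no sequencing depth per plant, and the read numbers that the study lists were not used here, so the precision is shown by the standard errors alone.

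Group levels were computed as the mean level plus or minus b divided by 2, and the residual variance from the total variance and b. The Wald test was recomputed as b divided by its standard error, with Benjamini-Hochberg adjustment over all 30322 transcripts and a threshold of 0.05. As a second test, limma 3.58.1 in R 4.3.3 took b and the within-group variance, moderated with a trend over abundance. Limma and a stand-in for the Wald test were run on simulated plants drawn with normal spread. The stand-in took the larger of a transcript's own variance and the trend over abundance, so the fitted standard errors were not themselves tested. It made more false calls than limma. The Wald test takes the spread as known, and counts by it alone are to be read with more caution. Python 3.11.15, scipy 1.17.1 and matplotlib 3.10.9 were used for the rest. There were 43 gene lists, and 5 more written after the data had been seen, matched by Arabidopsis locus or annotated name. All members and lists were chosen with earlier results of these data known. Genes named are the 10 highest and 10 lowest b called by both tests with a mean level of at least 20 and an Arabidopsis match, up to 4 per list with the smallest limma p, the 3 smallest p in each direction in the tests between days and against HS, and the 5 highest levels called by both in each direction. Not every transcript the rule gives is printed. P-values set b, or a difference of b, against a standard error estimated from the spread between the plants sampled. Transcript sequences were not used here.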

Additional observations from a re-analysis of the deposited data

Results flagged for a closer look

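Effects of HRS differed between groups by the z test with Benjamini-Hochberg adjustment in the transcripts with the smallest p. Between day 11 and day 1, b was higher on day 11 by 2.25 ± 0.28 (SE) for SAHH1 (AUR62020865-RA), by 4.35 ± 0.55 for EXPA8 (AUR62030623-RA) and by 1.53 ± 0.20 for rpoC1 (AUR62014094-RA), a name that belongs to a plastid-encoded polymerase subunit. The day 11 effect minus the day 1 effect was -7.91 ± 0.28 for the plastid HSP25.3 (AUR62035610-RA), and -7.19 ± 0.26 and -6.64 ± 0.29 for the HSP17.6C copies AUR62001804-RA and AUR62009590-RA. Against HS on day 11, b in HRS was higher by 2.40 ± 0.28 for AUR62027945-RA, which matches At5g60390, by 2.16 ± 0.31 for the tropinone reductase homolog At5g06060 (AUR62012135-RA) and by 1.76 ± 0.27 for the ATP sulfurylase APS1 (AUR62040723-RA). HRS minus HS was -1.93 ± 0.23 for At5g17165 (AUR62005925-RA), -1.47 ± 0.21 for the cochaperone BAG6 (AUR62022637-RA) and -1.67 ± 0.24 for SMXL8 (AUR62012257-RA).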

How the results depend on the processing

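No paired analysis was possible because the table holds no values of single plants, and leaving out each plant in turn was not run for the same reason. The 1844 higher and 1879 lower calls of the Wald test became 844 and 839 with limma, 3530 and 3680 with the standard error without shrinkage, 1045 and 1043 at an adjusted p under 0.01, 919 and 1096 with a change of at least 2-fold, and 868 and 829 with each Arabidopsis locus counted once, where fewer items are tested. With a t distribution with 4 degrees of freedom, 0 and 0 were called, while 7336 transcripts had an unadjusted p under 0.05 with limma. Limma called 5 higher and 14 lower at an adjusted p under 0.01, and 1813 and 1858 at 0.1, alternatives added after the data were seen. Equal summed levels shift b in this comparison by 0.012 and moved neither count of calls by over 1.5 times. Scaling mattered for the other tests: 1174 transcripts had a higher effect on day 11 than on day 1, against 638, and 249 were higher and 1485 lower in HRS than in HS, against 854 and 305. With equal spread in all groups the latter were 3051 and 2065. Of 255 named transcripts, 216 stayed on the same side of the threshold with limma and 39 lost their call, and with the t distribution 53 stayed on the same side. Many of the 255 were named because limma called them or gave them a small p, so the limma count is not an independent check. Named transcripts reversed in 0 cases under the alternatives run. Most alternatives leave b unchanged and could not reverse a sign, and equal summed levels shift b by only 0.012.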
